A study of Mus musculus with 3 samples.

Results

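Apln and Aplnr, the genes of the ligand apelin and of its receptor, were 2 of the 32285 genes measured in single-cell libraries of mouse lung endothelial cells (ECs). They were found by their symbols in the deposited feature lists, where Apln has the identifier ENSMUSG00000037010 and Aplnr the identifier ENSMUSG00000044338. The data comprised 3 libraries with 1 library per group, each made from lung cells of wild-type (WT) C57BL/6 mice that were sorted as Pecam1 positive and Ptprc negative after a warm collagenase digestion. Control mice had received PBS through the tail vein and were taken after 6 h. The other groups had received 200000 B16-F10 cells, a mouse melanoma line, in 100 µl PBS by the same route and were taken after 6 h or 30 h. For such injections the study's methods give male mice aged 8 to 10 weeks. Cells of similarly treated mice were pooled before capture, with 2 mice per treatment by the labels and another number in the study's methods. Dye-labelled melanoma cells were added to the sort of the 6 h library. No PBS library taken at 30 h was analysed here, so time after injection and the presence of tumor cells cannot be told apart at 30 h.

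Apelin is a small secreted peptide, and Aplnr is a G protein-coupled receptor that also binds a second peptide ligand, the product of Apela. Apelin signalling in blood vessels is known for relaxing vessels through nitric oxide and for its part in vessel sprouting, where Apln is used as a marker of tip cells. In the lung, Apln is a known marker of aerocytes (aCap), the thin capillary cells that carry out gas exchange, whereas Aplnr is a known gene of the general capillary cells (gCap) that lie beside them.

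The positions of both genes are from the GENCODE M21 annotation of GRCm38, the assembly also called mm10. Apln lies on the minus strand of chromosome X from position 48025146 to 48034853, with 1 annotated transcript of 3 exons and 231 coding bases before the stop codon. Aplnr lies on the plus strand of chromosome 2 from position 85136225 to 85139923. Of its 2 annotated transcripts, the one that spans the gene has 1 exon and 1131 coding bases. Neither gene overlapped another annotated gene on either strand. The 250 bases just before the annotated start of Apln are shown because the level of the gene differed between classes and between libraries, and because they are where core promoter motifs would lie. The sequence is from RefSeq's promoter table (GRCm38.p6, chrX:48034854-48035103, minus strand, written 5′ to 3′), and capitals mark the matches to the motifs searched. The table gave no entry for Aplnr.

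Apln: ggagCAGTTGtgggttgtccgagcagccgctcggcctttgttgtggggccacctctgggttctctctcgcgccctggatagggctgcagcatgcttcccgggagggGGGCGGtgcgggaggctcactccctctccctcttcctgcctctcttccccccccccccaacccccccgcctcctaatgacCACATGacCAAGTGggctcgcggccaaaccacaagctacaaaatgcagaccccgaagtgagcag

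The stretch was 65.2% G or C, against a median of 52.4% over the same window of 32851 promoters. Of 10 motifs searched on both strands, 2 were found. The E-box pattern CANNTG occurred at 3 places, whose first bases lie 246, 64 and 56 bases before the start, and 66.2% of all promoters hold at least 1 match. The GC box GGGCGG occurred once, 144 bases before the start, and is held by 32.7% of promoters. The other 8 motifs had no match in this window. They were the hypoxia core ACGTG (in 16.6% of promoters), the Krueppel-like factor box CCACCC (28.1%), the forkhead motif GTAAACA (3.17%), the ETS core CCGGAAG (6.91%), the AP-1 pattern TGANTCA (6.75%), the GATA motif AGATAA (9.99%), the cyclic AMP element TGACGTCA (1.55%) and the TATA box TATAAA (12.4%). The motifs do not overlap one another in this stretch.

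The libraries held between 124085451 and 140601123 UMIs (a UMI is the barcode by which copies of a single RNA molecule are counted as 1). Barcodes with 1000 to 5000 detected genes, under 20% mitochondrial UMIs and at least 2 UMIs of Pecam1 and Cdh5 were kept as endothelial. They numbered 11231 in control ECs, 10583 at 6 h and 9278 at 30 h, with a median of 7782 to 8676 UMIs. Between 59 and 75 of these barcodes per library also occurred in another library. Classes were gated by marker panels of which neither member is a part. The aCap gate needed 3 UMIs of Ednrb, Fibin, Tbx2 and Chst1 and held 1398, 1175 and 1351 barcodes in the control, 6 h and 30 h libraries. The gCap gate needed 3 UMIs of Gpihbp1, Kit and Plvap with at most 1 UMI of the aCap panel and held 6704, 6711 and 5054. Gates for artery, vein and lymphatic ECs (LECs) held 582 to 625, 720 to 1099 and 65 to 81 barcodes. Barcodes with 3 or more aCap UMIs and at least as many gCap UMIs were kept apart as both-panel capillary (461 to 511). In those, 19.3% to 23.1% were among the highest doublet scores, against 5.79% to 8.94% in the aCap and gCap gates.

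Markers that took no part in the gates bore out the names aCap, gCap and LEC. Summed over 5 aCap check markers, the aCap gate held 3183 to 4492 CPM (UMIs per 1000000 UMIs) and the gCap gate 210 to 262 CPM. Summed over 5 gCap check markers, the gCap gate held 2025 to 2374 CPM and the aCap gate 156 to 226 CPM. The vein gate held 1513 to 1809 CPM of them, so they set gCap apart from aCap but little from vein. The 5 vein check markers summed to 1663 to 1885 CPM in the vein gate and 181 to 209 CPM in gCap. The LEC gate held 3732 to 4519 CPM of the 5 LEC check markers. The artery gate was less clear, since its barcodes held 760 to 1011 CPM of the 5 artery check markers and 1684 to 2084 CPM of the gCap check markers. Part of the latter were Sema3g and Hey1, which arteries are also known to express. Values for artery and vein are therefore given for these gates and not for pure cell types.

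Apln was highest in aCap in each library, as the plot of level by class shows. In the aCap gate its level was 129 CPM (95% interval 123 to 135, 1827 UMIs) in the control library. At 6 h the level was 182 CPM (174 to 189, 2180 UMIs). At 30 h it was 331 CPM (322 to 340, 4906 UMIs). Levels were computed on UMIs summed over the barcodes of a class, and all intervals cover counting error only. The 3 intervals did not overlap. Each group is a single library, so nothing here measures the spread between mice, and no test was run on any difference between groups.

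**Figure D1:**
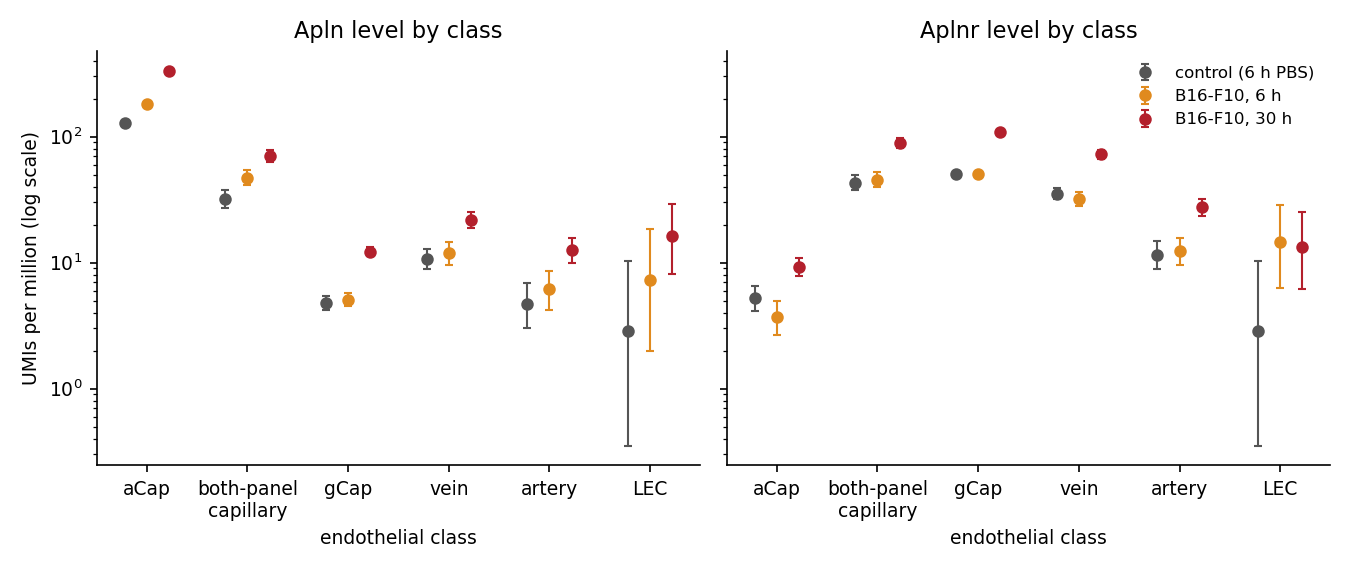
Level of Apln (left) and Aplnr (right) in UMIs per 1000000 (CPM) on a log axis, by endothelial class, with 1 point per library and exact Poisson 95% intervals for counting error. Apln is highest in aCap (129, 182 and 331 CPM for control, 6 h and 30 h ECs) and Aplnr in gCap (50.3, 50.3 and 109 CPM).

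In the gCap gate, Apln was at 4.82 CPM in control ECs, 5.08 CPM at 6 h and 12.2 CPM at 30 h. The aCap level was thus 26.7-fold (23.3 to 30.7) the gCap level in the control library. On the log2 scale this ratio was 4.74 (4.54 to 4.94) in control ECs, 5.16 (4.97 to 5.35) at 6 h and 4.76 (4.62 to 4.89) at 30 h. The aCap gate held 75.1%, 75.7% and 78.7% of all endothelial Apln UMIs, although it held only 12.4%, 11.1% and 14.6% of the endothelial barcodes. Over all ECs, where a change in the share of aCap barcodes and a change of level within them both count, Apln was at 26.8, 33.0 and 76.5 CPM. Both-panel capillary barcodes held 32.0, 47.3 and 70.2 CPM. In the vein gate the level was 10.8 CPM in control ECs, 11.9 CPM at 6 h and 21.7 CPM at 30 h. It was above the gCap level in each library, with log2 ratios of 1.16 (0.83 to 1.48), 1.23 (0.87 to 1.58) and 0.82 (0.57 to 1.07). With at least 5 panel UMIs per barcode, the vein level in the control library was 5.70 CPM, with an interval of 4.15 to 7.62 that included the gCap level. The artery gate held 4.66, 6.14 and 12.6 CPM and could not be told from gCap by its counts, since the log2 ratio of gCap to artery was 0.05 (-0.55 to 0.71) in control ECs and its interval included 0 in each library. In LECs only 2, 4 and 11 Apln UMIs were counted, too few to place this class in the order.

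Among the named classes, Aplnr was highest in gCap in each library, and lowest in aCap among the classes with enough UMIs to be placed. In the gCap gate its level was 50.3 CPM (48.4 to 52.4, 2466 UMIs) in the control library. It was 50.3 CPM (48.3 to 52.2, 2600 UMIs) at 6 h and 109 CPM (106 to 113, 4425 UMIs) at 30 h. The first 2 intervals all but coincided, and the third lay well above them. Endothelial barcodes past no gate held 50.6, 38.2 and 85.5 CPM, so in control ECs they were not below gCap. Both-panel capillary barcodes held 43.1, 45.6 and 88.8 CPM, above the vein gate in each library. At 6 h gCap could not be told from them by its counts (log2 ratio 0.14, -0.06 to 0.35). Among the named classes vein came next, with 35.2 CPM in control ECs, 31.8 CPM at 6 h and 72.4 CPM at 30 h. The gCap level was above the vein level in each library, by a log2 ratio of 0.52 (0.36 to 0.67), 0.66 (0.46 to 0.86) and 0.60 (0.47 to 0.72). The artery gate held 11.6, 12.3 and 27.6 CPM, which was below the vein level by 1.61 (1.22 to 2.02) on the log2 scale in the control library. The aCap gate was lower still, with 5.22, 3.67 and 9.24 CPM. The gCap level exceeded it by a log2 ratio of 3.27 (2.94 to 3.62) in control ECs, 3.78 (3.35 to 4.24) at 6 h and 3.57 (3.32 to 3.82) at 30 h. In LECs 2, 8 and 9 Aplnr UMIs were counted. Of all endothelial Aplnr UMIs, 70.7%, 76.9% and 70.2% were in the gCap gate and 11.4%, 6.95% and 9.91% in the vein gate.

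RNA that is free in the suspension gives UMIs of a gene in cells that do not make it, so the low levels were set beside empty droplets. Barcodes with 10 to under 100 UMIs held 34.2 CPM of Apln in the control, 37.2 CPM in the 6 h and 77.5 CPM in the 30 h library. For Aplnr the same droplets held 22.01, 32.5 and 61.3 CPM. Markers of alveolar epithelium and club cells gave an estimated share of free RNA of 4.86% to 10.5% in gCap and 11.3% to 21.4% in aCap. At these shares free RNA alone would give 1.66, 3.90 and 5.77 CPM of Apln in gCap, under the levels seen there. These values carry no interval, and the 6 h value rests on 24 Apln UMIs in empty droplets (23.8 to 55.3 CPM). The part of free RNA in the gCap level at 6 h therefore cannot be told apart. Free RNA would give 2.48, 6.38 and 13.1 CPM of Aplnr in aCap, which at 6 h and 30 h is more than was counted there. The estimate is thus too high for Aplnr in aCap in those libraries. The same share was used for Apln in aCap, so the estimate may be too high for Apln there as well. In the artery gate the estimated share was 21.6% to 50.96%, which would give more Apln than was counted there in each library, so the estimate is too high there as well.

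The share of barcodes with a UMI showed the same division. Each barcode was thinned to 3000 UMIs, because depth differed between classes and libraries, and shallower barcodes were left out (56 to 65 per library in aCap, 376 to 643 in gCap). An Apln UMI was found in 28.1% (25.7 to 30.6) of aCap barcodes in control ECs, 34.9% (32.1 to 37.7) at 6 h and 54.0% (51.3 to 56.8) at 30 h. Without thinning the shares were 55.8%, 62.7% and 81.2%. In gCap the thinned share for Apln was 1.48%, 1.44% and 3.44%. Barcodes with fewer than 2 UMIs of Pecam1 and Cdh5 had an Apln UMI in 1.01% (0.0256 to 5.50), 3.65% (1.20 to 8.31) and 3.81% (1.05 to 9.47), at 99 to 137 barcodes per library. Before barcodes under 3000 UMIs were left out, the median depth of such barcodes was 2504 to 2770 UMIs, against 7106 to 7945 in gCap. The Apln share in gCap lay inside these intervals, which are too wide to tell the shares apart, so the share alone is not read as expression.

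An Aplnr UMI was found in 13.0% (12.1 to 13.9) of thinned gCap barcodes in control ECs, 12.4% (11.6 to 13.3) at 6 h and 24.7% (23.5 to 26.0) at 30 h. Without thinning these were 25.3%, 25.9% and 44.9%. In aCap the thinned share was 1.499%, 1.16% and 2.88%. In barcodes with fewer than 2 UMIs of Pecam1 and Cdh5 it was 2.02% (0.246 to 7.11) in the control library and 0.952% (0.0241 to 5.19) at 30 h. At 6 h it was 0 of 137 barcodes, with an interval of 0 to 2.66%, where 3 barcodes of the total would be 2.19%. The Aplnr share in aCap could not be told apart from these values either and is not read as expression.

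**Figure D2:**
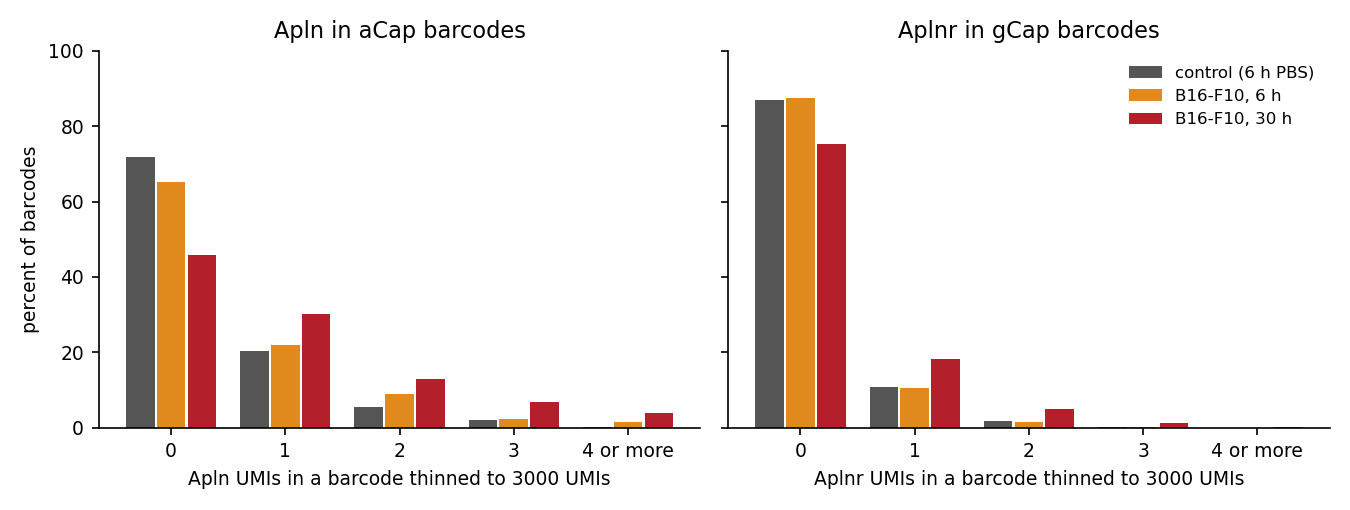
Percent of barcodes (from 0 to 100) by the number of Apln UMIs in aCap (left) and of Aplnr UMIs in gCap (right), after thinning each barcode to 3000 UMIs, with 1 bar per library. In the 30 h library barcodes with no UMI are fewer (45.96% for Apln and 75.3% for Aplnr) and every class from 1 UMI up is larger than in the control library.

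The difference at 30 h was not limited to a few barcodes of very high count. Among thinned aCap barcodes, 74 had 2 Apln UMIs, 27 had 3 and 3 had 4 or more in the control library, of 1334. At 30 h the same numbers were 168, 89 and 51 of 1286. Among thinned gCap barcodes, 110 had 2 Aplnr UMIs and 16 had 3 in the control library, of 6061, against 229 and 66 of 4678 at 30 h. The distributions at 6 h lay near the control for Aplnr (93 barcodes with 2 UMIs and 14 with 3, of 6162) and between the others for Apln (100 with 2 and 16 with 4 or more, of 1119).

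Few barcodes carried both genes. In thinned gCap barcodes ligand and receptor were found together 13, 12 and 38 times in the order control, 6 h, 30 h. The product of the separate shares gives 11.7, 11.1 and 39.8 barcodes. In thinned aCap barcodes they were found together in 5, 5 and 17 barcodes, against products of 5.62, 4.53 and 19.996. In neither class did the thinned counts stand far from the products. Without thinning both genes were found in 73, 68 and 195 gCap barcodes, against products of 54.4, 57.7 and 176. In aCap they were found together in 33, 29 and 82, against 34.6, 25.1 and 74.7. The gCap product in the control library, a share of 0.811%, lay below the interval of the share seen (0.854% to 1.37%). The part of depth in these was not tested. In both-panel capillary barcodes at 30 h, 94 of 509 carried both (product 93.8).

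Between the 2 capillary classes, the levels passed over gradually. Capillary barcodes with at least 5 UMIs of the panels together were ordered by the aCap panel's share of those UMIs. In the control library Apln was at 4.15 CPM in barcodes with no aCap UMI and at 9.51 CPM where the share was above 0 to 0.2. It was at 35.4 CPM above 0.2 to 0.4, at 86.8 CPM at 0.4 to 0.6 and at 109 CPM at 0.6 to 0.8. From 0.8 to below 1 it was at 141 CPM, and in barcodes with aCap panel UMIs alone at 119 CPM. Over the same steps Aplnr went from 51.6 CPM to 51.1, 33.5, 22.5, 13.7, 2.42 and 1.97 CPM, so it was level over the first 2 steps. Apln was thus highest just short of the pure aCap end, while the Aplnr intervals of the last 2 steps overlapped. Barcodes with aCap panel UMIs alone were shallower, with a median of 8964.5 UMIs against 10837 in the step before. The part of depth was not tested. At 6 h and 30 h Apln likewise went up step by step to 197 and 357 CPM from 0.8 to below 1, and was at 161 and 330 CPM in barcodes with aCap panel UMIs alone. At 30 h the Apln intervals of these last 2 steps overlapped. Aplnr was lower at each step in all 3 libraries, but its intervals overlapped between the first 2 steps in each. Without the highest doublet scores its 6 h level went from 49.4 to 50.3 CPM over those first 2 steps. In the middle step 32.8% to 40.7% of barcodes were among the highest doublet scores. Without those barcodes the middle step held 99.4 CPM of Apln and 21.1 CPM of Aplnr in the control library, still between the ends. Droplets that hold 1 cell of each class cannot be told apart here from cells with both panels.

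**Figure D3:**
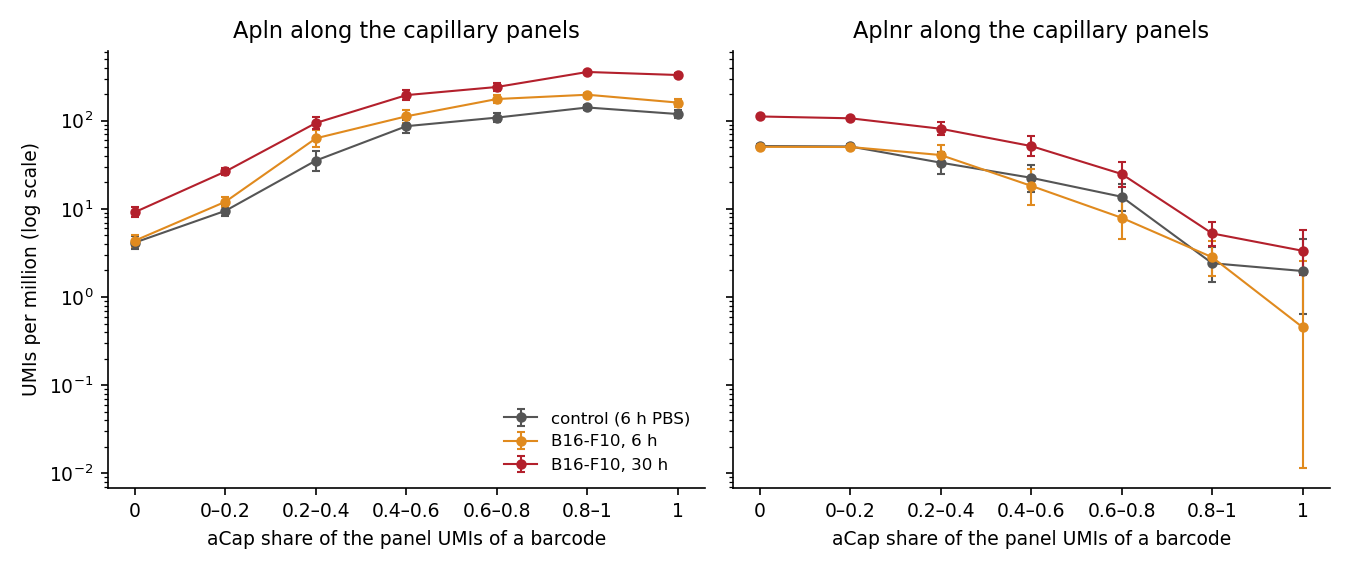
Level of Apln (left) and Aplnr (right) in UMIs per 1000000 (CPM) on a log axis, by the share of aCap panel UMIs among all capillary panel UMIs of a barcode, with 1 line per library and Poisson 95% intervals. Apln goes up from 4.15 to above 100 CPM and Aplnr down from 51.6 to 1.97 CPM in control ECs, and the 30 h line lies above the others throughout.

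Between the libraries, the ligand stood above the control at 6 h and again at 30 h, and the receptor at 30 h. For Apln in aCap the 6 h library exceeded the control by 0.50 on the log2 scale (0.41 to 0.59), or 1.41-fold. The 30 h library exceeded the control by 1.36 (1.28 to 1.44), or 2.57-fold, and the 6 h library by 0.86 (0.79 to 0.94). For Aplnr in gCap the 6 h library and the control had a log2 ratio of -0.00 (-0.08 to 0.08). At 30 h Aplnr exceeded the control by 1.12 (1.05 to 1.19), or 2.17-fold. Whether the 6 h ratios of the 2 genes differ was not tested, and the comparisons share their control library.

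**Figure D4:**
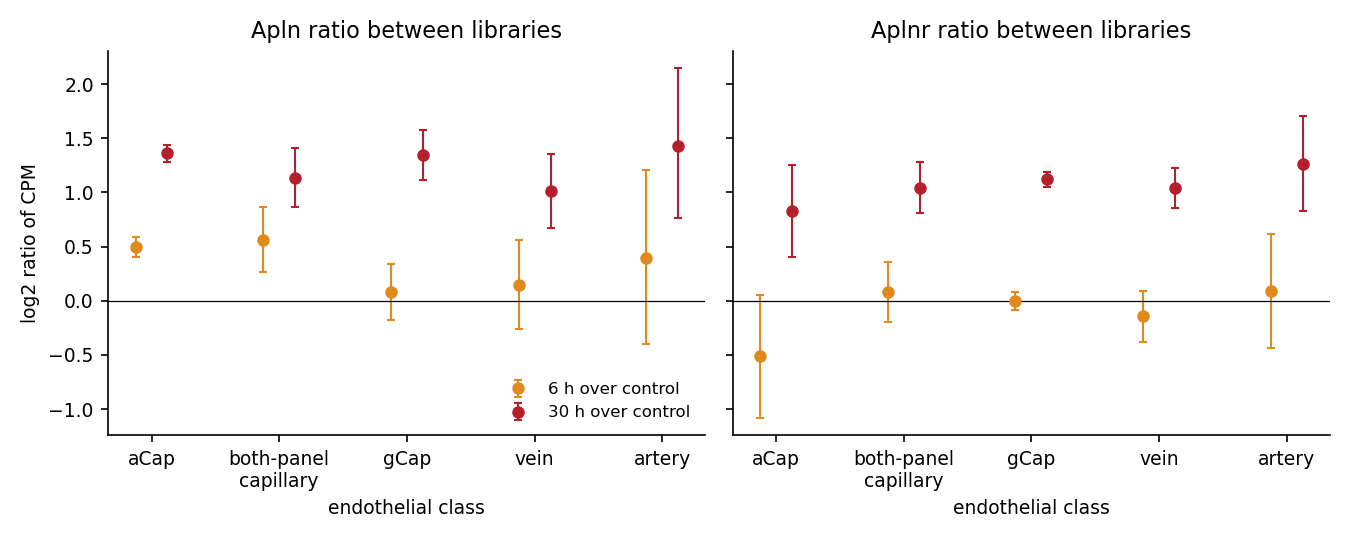
Log2 ratio of the level in the 6 h or 30 h library over the control library for Apln (left) and Aplnr (right), by class, with exact conditional 95% intervals for counting error and a line at 0. All 30 h ratios are above 0. At 6 h the intervals exclude 0 for Apln in aCap (0.50) and both-panel capillary barcodes (0.56) and include it in the other classes plotted, which leave out LECs and barcodes past no gate.

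Set among all genes with at least 5 CPM, the 30 h values lay far out. In aCap 6.26% of 9915 genes were at least 1.5-fold higher at 30 h than in the control, and Apln ranked 47th of them by its ratio. In gCap 4.94% of 10001 genes were at least 1.5-fold higher at 30 h, and Aplnr ranked 84th. At 6 h, 1.59% of genes in aCap were at least 1.5-fold higher. Apln was not one of these, since its 1.41-fold difference left it at rank 234. Aplnr ranked 4719th in gCap at 6 h, near the middle of all genes. The median log2 ratio of all genes was -0.09 in aCap and -0.08 in gCap at 30 h, so the member ratios are slightly larger relative to it (1.45 for Apln and 1.20 for Aplnr).

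**Figure D5:**
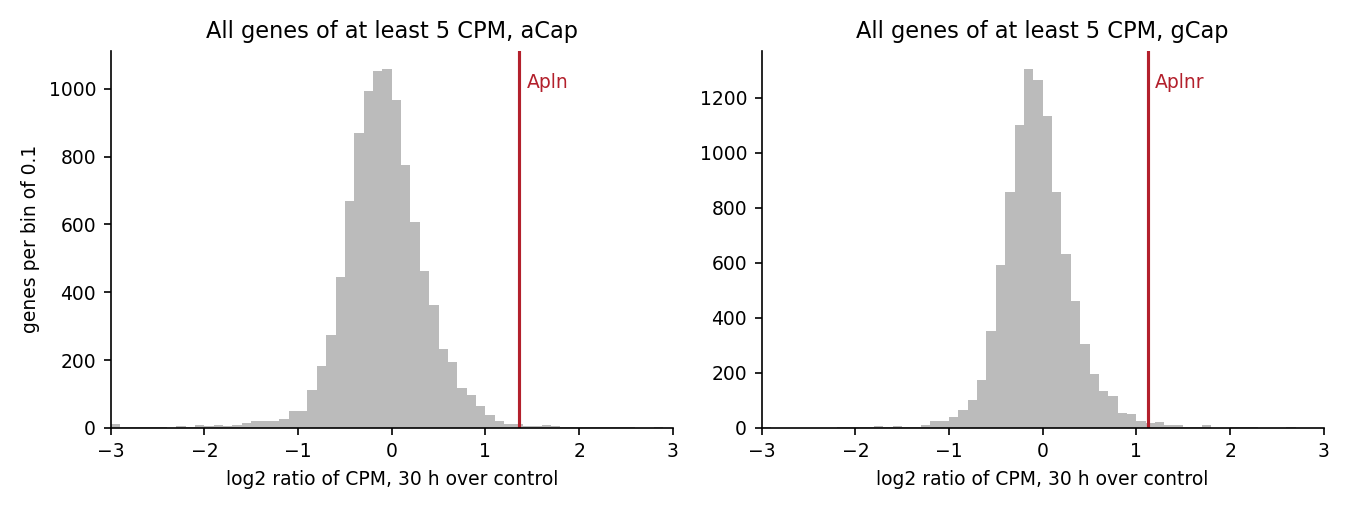
Number of genes by log2 ratio of the 30 h library over the control library, in bins of 0.1, for genes of at least 5 CPM in aCap (left) and gCap (right). The red lines mark Apln at 1.36 in aCap and Aplnr at 1.12 in gCap, both in the right tail.

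In the other classes the 30 h levels were also above the control, at much lower counts. For Apln the log2 ratio over the control was 1.34 (1.12 to 1.57) in gCap, 1.01 (0.67 to 1.35) in vein and 1.43 (0.76 to 2.15) in artery. For Aplnr it was 1.04 (0.85 to 1.22) in vein, 1.26 (0.83 to 1.70) in artery and 0.82 (0.41 to 1.25) in aCap. In empty droplets the same ratio was 1.18 (0.60 to 1.81) for Apln and 1.48 (0.77 to 2.27) for Aplnr. With free RNA subtracted, the 30 h ratio of Apln in gCap was 1.08 (0.78 to 1.37) and that of Aplnr in vein 1.03 (0.84 to 1.21). For Aplnr in aCap the estimate exceeds the counts at 6 h and 30 h, so the part of free RNA in its ratio of 0.82 cannot be told apart. The artery ratios were not stable, since with at least 5 panel UMIs they were 0.38 (-0.80 to 1.62) for Apln and 0.47 (-0.12 to 1.07) for Aplnr. At 6 h the vein ratio of Apln was 0.15 (-0.26 to 0.56), and 1.07 (0.51 to 1.65) with at least 5 panel UMIs. The same subtraction gave a gCap ratio of Apln at 6 h of -1.33 (-1.78 to -0.89), where it was 0.08 (-0.18 to 0.34) without. Intervals after subtraction leave out the error of the amount subtracted. At 6 h that amount rests on 24 Apln UMIs in empty droplets (23.8 to 55.3 CPM), so the ratio of -1.33 is not read as a difference. The 2 club markers, which enter the estimate, also differed between classes at 6 h. They summed to 367 CPM in gCap, 64.5 CPM in aCap and 57.7 CPM in vein, and their part in the ratio was not tested. In aCap the 6 h ratio of Aplnr was -0.51 (-1.08 to 0.05), from 44 UMIs against 74. Endothelial barcodes that passed no gate (841 to 866 per library) had a 6 h ratio of 0.50 (0.02 to 1.00) for Apln and of -0.41 (-0.67 to -0.14) for Aplnr.

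Heat shock genes, immediate early genes and RNA of other cells differed between the libraries as well. Summed over 5 heat shock genes, the aCap gate held 343 CPM in control ECs, 815 CPM at 6 h and 279 CPM at 30 h. The 8 immediate early genes there summed to 6836, 7561 and 4775 CPM. In gCap the heat shock sum was 282, 769 and 284 CPM and the immediate early sum 8038, 11859 and 5760 CPM. Both lists were highest at 6 h in both classes. All 4 red cell markers were detected in aCap, with sums of 3024, 1423 and 744 CPM, and all 5 alveolar epithelium markers, with sums of 1926, 1625 and 1559 CPM. All 4 platelet markers (81.3 to 110 CPM), all 4 pericyte markers (45.4 to 97.2 CPM) and 4 or 5 of the 5 immune markers (22.05 to 39.1 CPM) were detected in the aCap gate of each library. In gCap the red cell sum was 3050, 2390 and 929 CPM. The 2 club markers, which also enter the free RNA estimate, summed to 265, 64.5 and 41.2 CPM in aCap and to 338, 367 and 53.9 CPM in gCap. The aCap check markers summed to 3602, 3183 and 4492 CPM in aCap, of which Car4 made up 2089, 1832 and 3040 CPM, while Tbx3os1 (403, 321 and 346 CPM) and Pde8b (351, 288 and 281 CPM) were lower than in control ECs at both times. Itgb5 (186, 159 and 223 CPM) and Rgs6 (573, 584 and 601 CPM) were higher at 30 h, so 3 of the 5 were above the control there. The part of these in the member ratios was not tested.

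Few genes of the wider apelin pathway passed 1.5-fold. A list of 40 genes was used, made of ligand, peptidases, G proteins, arrestins, kinases, targets, regulators and related receptors. Of these, 34 reached a mean of 5 CPM over the libraries in aCap and 33 in gCap, and only such genes were counted. At 6 h 1 of 34 was at least 1.5-fold higher in aCap and none lower, against 1.59% higher and 1.65% lower over all genes. At 30 h none was higher in aCap and 2 were lower, against 6.26% of all genes higher and 9.07% lower. In gCap none of 33 passed in either direction at 6 h, against 2.73% higher and 1.37% lower over all genes. At 30 h 1 was higher and none lower, against 4.94% of all genes higher and 5.17% lower. The median log2 ratio of the list was -0.15 in aCap and -0.08 in gCap at 30 h, beside -0.09 and -0.08 for all genes. These shares are near those of all genes, so the counts are no result about the list.

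Among ligands and peptidases, the second ligand Apela was at 0 UMIs in aCap in all libraries and had 1 UMI in gCap in the control library only. Ace, of the angiotensin system, was abundant, with 907, 811 and 1037 CPM in aCap and 1034, 912 and 1084 CPM in gCap. Its log2 ratios over the control lay between -0.18 and 0.19.

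Among receptors and signalling genes, Bdkrb2, the bradykinin receptor, was the pathway gene that passed at 6 h in aCap. Its level there was 37.2 CPM in control ECs, 59.1 CPM at 6 h and 33.7 CPM at 30 h, a log2 ratio of 0.67 at 6 h. In gCap it was at 1.98, 7.33 and 4.25 CPM, a mean too low to be counted. Grk5, a kinase that desensitizes G protein-coupled receptors, was at 137, 127 and 89.1 CPM in aCap, with a log2 ratio of -0.62 at 30 h. Its gCap levels were 181, 165 and 126 CPM, with a ratio of -0.53 that did not pass 1.5-fold. Sirt3, a mitochondrial deacetylase, was at 14.9, 11.5 and 9.64 CPM in aCap, a ratio of -0.63 at 30 h.

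Among the targets, Nos3, which makes nitric oxide in endothelium, was the gene that passed at 30 h in gCap. Its level there was 24.3 CPM in control ECs, 27.8 CPM at 6 h and 38.5 CPM at 30 h, a log2 ratio of 0.66. In aCap Nos3 was under 6 CPM in each library, with a mean too low to be counted. Klf2, a flow-responsive transcription factor, was at 1525, 1696 and 2029 CPM in gCap, a ratio of 0.41 at 30 h. Klf4, a related factor, was at 822, 1181 and 1107 CPM in gCap. Neither Klf2 nor Klf4 passed 1.5-fold there, and both were named after their values were seen. The other targets on the list are not given one by one. The whole list had a median log2 ratio of -0.08 in gCap at 30 h, beside -0.08 for all genes.

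Set directly against 6 h, the 30 h library had 2 pathway genes lower and none higher in aCap (8.76% and 6.98% of all genes), Bdkrb2 and the growth factor receptor Fgfr1 (41.1 CPM at 6 h and 26.6 CPM at 30 h). In gCap 1 of 33 was lower and none higher (5.57% and 5.28% of all genes), the stress factor Atf4 with 229 against 149 CPM. Ednrb, the endothelin receptor, is a gene of the aCap gate, so its counts in aCap and gCap depend on the gates, while the vein and artery gates were applied before and without it. In the vein gate it was 1 of 34 lower at 6 h, with none higher (2.72% and 3.13% of all genes), at 72.3, 39.3 and 83.6 CPM in the order control, 6 h, 30 h. None passed there at 30 h (5.17% of all genes higher and 6.03% lower), and Ednrb was the 1 gene higher against 6 h, with none lower (5.31% and 5.99%). In the artery gate 3 of 36 were higher and 1 lower at 6 h (5.52% and 4.35%). They were Bdkrb2 (9.32, 26.0 and 20.01 CPM), the protease Furin (79.9, 121 and 76.2 CPM) and the hypoxia factor Hif1a (65.4, 114 and 68.3 CPM), with Ednrb lower (54.4, 32.0 and 67.1 CPM). At 30 h Bdkrb2 and the kinase Mapk3 were higher and the peptidase Mme lower there (6.76% and 9.23%), and against 6 h 4 were higher and 5 lower (7.2% and 8.61%). Those were Pcsk5, Klf2, Mapk3 and Ednrb, and Mme, Furin, Arrb2, Hif1a and Atf4.

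Because Apln is used as a marker of tip cells, 20 genes of sprouting endothelium were set beside it. Of these, Plvap is a gene of the gCap gate, so its counts in aCap and gCap depend on the gates. It was not among the genes past 1.5-fold in either class. In aCap 1 of 13 that reached 5 CPM was at least 1.5-fold higher and 2 were lower at 6 h, beside 1.59% and 1.65% of all genes, and 4 were higher and none lower at 30 h, beside 6.26% of all genes higher and 9.07% lower. Those higher at 30 h were Mcam, an adhesion molecule (45.8, 68.8 and 102 CPM in the order control, 6 h, 30 h), Unc5b, a netrin receptor (31.6, 41.6 and 60.1 CPM), and the VEGF receptors Kdr (1430, 1424 and 2290 CPM) and Flt4 (36.0, 31.8 and 59.7 CPM). Mcam and Unc5b followed the order of Apln over the libraries, while Kdr and Flt4 were near or below the control at 6 h. Angpt2 and Cxcr4, also tip cell genes, were the 2 that were lower at 6 h, at 5.25 CPM against 8.74 CPM and at 4.17 CPM against 8.32 CPM. In gCap 4 of 15 were higher at 6 h (Plaur, Mcam, Unc5b and Vegfa) and none lower, beside 2.73% and 1.37% of all genes. At 30 h 3 were higher there (Mcam, Unc5b and Cd34) and none lower, beside 4.94% and 5.17%. The list's median log2 ratio at 30 h was 0.03 in aCap and 0.28 in gCap. Esm1, Pgf, Adm and Kcne3, further tip cell genes, were under 4 CPM in aCap in each library.

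The genes whose levels were most like each member were ranked by Pearson's r over 15 sums (5 classes in 3 libraries), on log2(CPM + 10), among 10525 genes. The sums share libraries, so these values are descriptions only. For Apln the 10 genes were Ccdc184, Rprml, 2610203C22Rik, Papss1, Slc5a12, Nectin3, AW112010, Car4, Lmntd1 and Tnfrsf11b, with r from 0.98 to 0.97. Car4, a carbonic anhydrase and aCap marker, went from 2089 CPM in control ECs to 1832 CPM (6 h) and 3040 CPM (30 h) in aCap. AW112010 went from 637 to 865 and 1186 CPM and Rprml from 111 to 131 and 178 CPM. By the rank of CPM (Spearman's rho) none of these 10 genes was again among the first 10.

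For Aplnr the 10 genes were Car14, Dnah8, Gm20627, Glp1r, Cd1d1, Ccdc163, H2-DMa, Anp32a, Ncaph and Wfdc1, with r from 0.94 to 0.89, and 5 of them were again among the first 10 by Spearman's rho. Wfdc1 went from 71.6 CPM in gCap of control ECs to 72.3 CPM at 6 h and 142 CPM at 30 h. Car14, another carbonic anhydrase, went from 45.6 to 44.0 and 70.9 CPM, and Glp1r, the receptor of glucagon-like peptide, from 408 to 365 and 508 CPM. Over the same sums Apln and Aplnr had an r of -0.40.

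Within gCap, barcodes with an Aplnr UMI were set beside those without one. They numbered 1696 and 5008 in control ECs, 1737 and 4974 at 6 h and 2271 and 2783 at 30 h. Among the 10 genes with the largest ratio in all libraries were Fabp4, Kirrel3, 1700020G17Rik, Cd79a, Lhx6, Zkscan2, Thrsp, Enpp2 and Gxylt2. Fabp4, a fatty acid carrier of capillary and venous endothelium, was at 74.3 against 23.1 CPM in control ECs, 47.6 against 21.8 CPM at 6 h and 66.6 against 28.0 CPM at 30 h. Enpp2, which makes lysophosphatidic acid, was at 30.8 against 20.2 CPM, 24.0 against 15.8 CPM and 38.9 against 22.6 CPM. Among barcodes with no aCap panel UMI, 4 of the 10 genes were again among the first 10. Cd79a, a B cell gene, Lhx6 and Zkscan2 rested on levels under 3 CPM in each library. The 5 vein check markers summed to 243 against 195 CPM, 222 against 195 CPM and 216 against 144 CPM. The 5 artery check markers summed to 72.9 against 123 CPM, 77.9 against 128.5 CPM and 66.1 against 122 CPM. Barcodes with Aplnr thus held less artery and more vein marker RNA in each of the 3 libraries. Their median depth was higher too, at 7980.5 against 6773 UMIs in the control library.

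Barcodes of gCap with an Apln UMI numbered 215, 223 and 392. Their leading genes were AW112010, Emp2, Map1b, Mgp, Epm2a, Tns3, Itgb5, Rgs10, Nptx1 and Alox5ap. Of these, AW112010, Tns3 and Itgb5 are among the aCap markers that the study itself chose, on these samples among others. AW112010 was at 61.6 against 31.2 CPM in control ECs, 78.9 against 36.1 CPM at 6 h and 111 against 52.2 CPM at 30 h. The aCap panel, held to at most 1 UMI by the gate, was at 41.0 against 33.3 CPM, 41.0 against 29.2 CPM and 45.6 against 30.6 CPM. The 5 aCap check markers, Itgb5 among them, summed to 312 against 238 CPM, 216 against 210 CPM and 297 against 258 CPM. With no aCap panel UMI they summed to 302 against 232 CPM, 185 against 203 CPM and 284 against 252 CPM, and so were lower at 6 h. Among barcodes with no aCap panel UMI at all, 6 of the 10 leading genes were again among the first 10, and Itgb5 was not. Those first 10 also held the red cell genes Hba-a1 (1020 against 608 CPM, 1499 against 597 CPM and 846 against 209 CPM) and Hba-a2, and the part of red cell RNA was not tested.

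Smaller groups of gCap barcodes were compared for Aplnr. Barcodes with a UMI of Ntrk2, a neurotrophin receptor, held less of it than the others, with 43.6 against 51.5 CPM in control ECs, 42.4 against 51.3 CPM at 6 h and 94.99 against 115 CPM at 30 h. The intervals did not overlap in any of the 3 libraries. Barcodes with an Esm1 UMI held 30.8 against 50.9 CPM of Aplnr in control ECs, 45.1 against 50.5 CPM at 6 h and 89.2 against 110 CPM at 30 h, and the intervals overlapped at 6 h. Barcodes with at least 1 UMI each of Pim3, Bcl3 and Tmem252, genes of the study's reactive capillaries, held 55.0 against 50.1 CPM in control ECs, 54.0 against 49.6 CPM at 6 h and 143 against 108 CPM at 30 h. The intervals of the last pair alone did not overlap. For Apln, barcodes with Esm1 held 1.62 CPM (2 UMIs) against 4.90 CPM in the control library, 6.73 CPM (13 UMIs) against 5.02 CPM at 6 h and 22.3 CPM (32 UMIs) against 11.9 CPM at 30 h, and the intervals overlapped in the first 2 of these.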

How the data were processed

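UMI counts per gene and barcode were deposited by the authors for 3 libraries, as unfiltered matrices without normalization. Per the file headers and the submitters' notes they were made with Cell Ranger 7.2.0 and the genome build mm10. An older version stands in the study's methods, and whether intronic reads were counted is not given in the sources used here. Where a symbol occurs on more than 1 row (Ccl21a, used in the LEC gate), the first row was used.

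From these counts, barcodes were gated as described, UMIs of each class were added up within a library, and CPM, exact Poisson intervals, exact conditional binomial intervals of ratios and Clopper-Pearson intervals of shares were computed at 95% (Python 3.11.15, numpy 2.4.6, scipy 1.17.1). All intervals cover counting error only. A gene was tested against the 1.5-fold limit where its mean over the libraries was at least 5 CPM, and called where the ratio of CPM passed it, with no p-value. The calculation was tested on simulated data. No doublet caller was applied in the reported values, and the highest Scrublet scores (scanpy 1.11.5, 0.8% per 1000 barcodes) were left out in an alternative. Free RNA was estimated per class as the summed share of alveolar and club markers over that in barcodes of 10 to under 100 UMIs. Depth was 124085451 to 140601123 UMIs per library.

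The named genes were the members, the pathway genes past 1.5-fold, the 10 genes most alike to each member, and the 10 genes with the largest smallest-of-3-libraries ratio in member-positive gCap barcodes with at least 20 UMIs there in each library. Tip cell genes, Ace, Apela, Klf2, Klf4 and the Esm1, Ntrk2 and Pim3 subsets were named after their values were seen. Single genes that fall under these rules are not reported here. The members and lists were chosen with earlier results of these data known. Alternatives covered the gates, barcode limits, doublets, denominator, free RNA, thinning and level minimum, and 3 were added after seeing the data.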

Additional observations from a re-analysis of the deposited data

Results flagged for a closer look

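In empty droplets, which are in no class and serve here to estimate free RNA, Apln was at 77.5 CPM and Aplnr at 61.3 CPM in the 30 h library, above the control library's 34.2 CPM and 22.01 CPM with intervals of the ratio that excluded 0 on the log2 scale (0.60 to 1.81 and 0.77 to 2.27).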

How the results depend on the processing

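No paired analysis was possible because each group has 1 library and the comparisons rest on counts, and leaving out a replicate was not possible for the same reason. Over 12 alternatives, the aCap ratio of Apln was 0.48 to 0.62 at 6 h and 1.35 to 1.51 at 30 h, and the gCap ratio of Aplnr was 1.09 to 1.20 at 30 h with no interval that included 0. At 6 h it was -0.03 to 0.01 and every interval included 0. With free RNA subtracted, Apln in aCap was 0.62 at 6 h and 1.51 at 30 h, the aCap against gCap ratio of Apln was 5.41, 7.36 and 5.84 in the control, 6 h and 30 h libraries, and the gCap against aCap ratio of Aplnr was 4.07 in the control library. The 6 h value of 7.36 rests on 24 Apln UMIs in empty droplets, whose error is left out. The subtraction left no Aplnr in aCap at 6 h or 30 h, so those Aplnr ratios could not be computed. The same shares were used for Apln in aCap, so its values after subtraction may rest on too large an amount. Those values are the upper ends of the Apln ranges over the alternatives. Without the highest doublet scores, the gCap against aCap ratio of Aplnr was 3.795 in the control library and 3.98 at 30 h. Relative to the median of all genes, Apln in aCap was 1.45 at 30 h against control and 0.97 against 6 h, and Aplnr in gCap was 1.20 for both. Unthinned shares were 55.8%, 62.7% and 81.2% for Apln and 25.3%, 25.9% and 44.9% for Aplnr. Thinned to 2000 UMIs they were 20.5%, 25.9% and 40.2%, and 9.41%, 8.97% and 17.9%. Genes at least 1.5-fold higher in aCap numbered 53 at 6 h and 283 at 30 h with at least 20 CPM, and 521 and 1124 with at least 1 CPM. Those lower numbered 56 and 552, and 526 and 1486. In gCap 140 and 263 were higher at 20 CPM and 497 and 931 at 1 CPM, and 66 and 305, and 337 and 865, were lower. The cause of these shifts was not tested, other than that a lower minimum tests more genes. Among ratios whose own interval excluded 0, 5 values changed sign. Ratios whose interval included 0, most of them at 6 h, changed sign more often. With a gate of at least 2 UMIs, barcodes past no gate had ratios of -0.074 for Apln at 6 h and -0.23 for Aplnr at 30 h, and with at least 5 UMIs the artery ratio of Apln at 30 h against 6 h was -0.39. With free RNA subtracted, barcodes past no gate had ratios of -1.83 and -2.34 for Apln at 30 h against control and 6 h. Of 648 values recomputed, 124 of those that answer a comparison and 454 of the others held, and 40 and 25 moved. The limits are 1 library per group, no 30 h PBS library, and depth, since LECs held at most 11 UMIs of either gene.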

Other observations

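In the 6 h library 44 barcodes held UMIs of at least 4 of 8 melanoma markers, against 0 in each of the other libraries.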
